A study of Mus musculus with 18 samples.

Results

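The solute carriers are the membrane proteins, apart from pumps and channels, that move ions, metals, amino acids, sugars, nucleotides and metabolites across cell and organelle membranes. The genes described here have a mouse symbol that begins with Slc and a mean of at least 5 CPM (counts scaled to the library total) over 18 libraries of the mouse left ventricle. That rule leaves out 8 genes by name (Slc8a1, Slc2a1, Slc2a4, Slc25a20, Slc22a5, Slc6a6, Slc16a1 and Slc27a1). It found 130 genes among 48709 in the table. Of 386 Slc symbols without those 8, 256 lay under that mean, and 54 Slc symbols had no count in any library. The genes were thus selected on their measured mean CPM over all 3 groups, and their level is a description. Just inside the limit were Slc35a5 at 5.24, Slc25a1 at 5.21 and Slc26a6 at 5.16 mean CPM, and just outside it Slc12a9 at 4.98, Slc10a7 at 4.92 and Slc19a2 at 4.84 mean CPM. Of the 130 genes, 127 belong to 40 numbered or lettered carrier families. The other 3 are named after a neighbour or partner of a carrier (Slc4a1ap, Slc7a6os and Slc9a3r2) and are not carriers themselves.

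Carriers of the Slc25 family sit mostly in the inner mitochondrial membrane and link the matrix to the cytosol: they exchange ADP for ATP, import phosphate and shuttle substrates and cofactors. Carriers of the cell surface set what a cell takes up and how it holds its pH, chloride and volume. In the heart the exchange of ADP and ATP serves the contractile machinery, and bicarbonate, proton and monocarboxylate carriers handle acid made by metabolism.

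The mice were 12-week-old wild-type C57BL/6J males, and each of 3 groups had 6 libraries of polyadenylated left ventricular RNA. In the group Isoproterenol and minocycline (Iso + mino below), isoproterenol, an agonist of beta-adrenergic receptors, was given by osmotic pump at 30 mg/kg per day with a daily intraperitoneal injection of minocycline, a tetracycline antibiotic, at 50 mg/kg. The group Isoproterenol (Iso below) had the same pump dose, and the group Control neither agent. Sterile saline is the stated alternative to each agent. Treatment lasted 21 days, and no group with minocycline alone was analysed here. The protocol text speaks of pooled RNA, so whether a library stands for 1 animal is uncertain. The p-values weigh group differences against the spread between libraries.

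Library totals ran from 14203041 to 22688664 counts, of which mitochondrially encoded genes took 40.1 to 47.7% and the 130 Slc genes 0.773 to 0.887%. Between-group values are CPM scaled by trimmed mean of M-values (TMM), which holds the median of all 13281 tested genes near 0 (log2 difference 0.00 for Iso and 0.00 for Iso + mino, both against Control). By library totals alone that median lies at 0.14 for Iso and 0.11 for Iso + mino, so every change below is relative to the bulk of genes. Whole tissue was sequenced, and fewer cells of a type cannot be told apart from less RNA per cell. The summed level of 5 ventricular cardiomyocyte genes was 41820 to 50225 CPM in Iso + mino hearts and 41439 to 45398 CPM in Iso hearts, against 51314 to 55910 CPM in Control hearts, with 3 of the 5 called lower in each treated group. Summed levels of 7 fibroblast genes were 913 to 1575, 991 to 1382 and 688 to 981 CPM in Iso + mino, Iso and Control hearts, with 6 and 3 called higher in the treated groups. Those of 7 macrophage genes were 146 to 211, 149 to 205 and 109 to 135 CPM, with 6 called higher in each. Those of 6 endothelial genes were 554 to 835, 583 to 686 and 500.4 to 650.4 CPM, with 1 called higher in Iso + mino hearts and 0 in Iso hearts. Those of 6 smooth muscle and pericyte genes were 749 to 1091, 697 to 927 and 595 to 788 CPM, with 3 called higher in Iso + mino hearts and 2 in Iso hearts. No tested gene of the adipocyte, erythrocyte, atrial or neural lists was called, and no B cell gene was abundant enough to test. No marker of these lists was at 0 in all libraries, and the part of such shifts in the Slc results was not tested. Iso + mino 4 stood apart: it held the lowest or highest value of its group for 67 of the 130 Slc genes, against 24 to 56 in the other 17 libraries. Iso + mino 4 and 6 also had the highest endothelial sums, at 835 and 807 CPM. Their smooth muscle and pericyte sums, 1091 and 965 CPM, were the highest too. Their cardiomyocyte sums, 43962 and 41820 CPM, were the lowest of the Iso + mino group. The atrial gene Myl7 exceeded 80 CPM in Iso + mino 2, Iso 5 and Control 5 and 6.

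In Iso hearts 9 of the 130 Slc genes were called higher than in Control hearts and 8 lower, where a call is an adjusted p under 0.05. The test is the quasi-likelihood F test of edgeR, and p-values were adjusted by Benjamini-Hochberg over all 13281 genes. Those 17 are 13.1% of the Slc genes, beside 12.6% of all genes tested (6.94% higher and 5.62% lower). In Iso + mino hearts 16 were called higher and 18 lower, together 26.2% of the Slc genes, beside 19.3% of all genes (10.2% higher and 9.05% lower). Between Iso + mino and Iso hearts none was called, beside 0.0527% of all genes (0.00753% higher and 0.0452% lower). The first share lies near its background, and the second is somewhat above it. The Slc genes were selected at a mean of at least 5 CPM, and the background was not matched for abundance. The second share is therefore not read as a trait of the carriers. At an unadjusted p under 0.05 stood 46 Slc genes in Iso + mino hearts, beside 33.5% of all genes, and 40 in Iso hearts, beside 27.6%. The libraries did not overlap with Control for 9 Slc genes in Iso + mino hearts (7.14% of all genes) and for 7 in Iso hearts (6.9% of all genes). The split by direction depends on the scaling: by library totals 26 Slc genes were called higher and 2 lower in Iso hearts (backgrounds 20.2% and 1.83%), and 22 higher and 8 lower in Iso + mino hearts (backgrounds 17.5% and 4.1%). The same 12 genes were called in both treated groups, which is 70.6% of the Iso calls and 35.3% of the Iso + mino calls. These comparisons share the Control libraries, so the overlap is a count only, and a call in one group alone is no difference between the groups. The other 91 genes were called in neither comparison with Control, among them the 3 named after a neighbour or partner of a carrier.

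**Figure D1:**
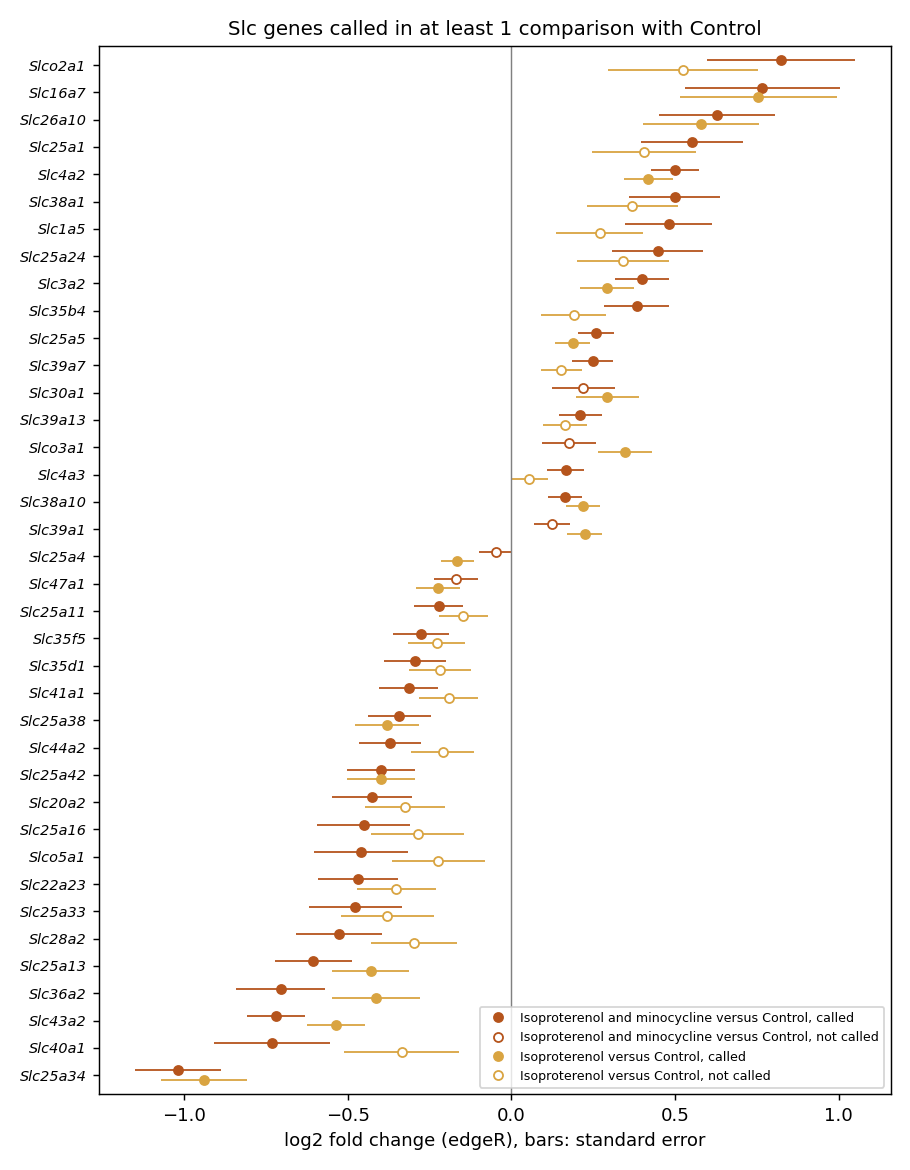
38 of the 39 Slc genes called in at least 1 comparison with Control: the x axis is the log2 fold change from edgeR, bars are its standard error, dark points are Iso + mino and light points Iso, filled where called. Slc25a34 lies farthest to the left at -1.02 and -0.94, and Slco2a1 farthest to the right at 0.82 in Iso + mino hearts.

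Among the mitochondrial carriers, Slc25a34 stood out by the size of its fall, and the aspartate-glutamate carrier Slc25a13, the coenzyme A carrier Slc25a42 and the glycine carrier Slc25a38 fell with it in both treated groups. The second ADP/ATP carrier, Slc25a5, rose in both. Of 30 Slc25 genes, 3 were called higher and 7 lower in Iso + mino hearts and 1 higher and 5 lower in Iso hearts, beside 10.2% higher and 9.05% lower of all genes in Iso + mino and 6.94% higher and 5.62% lower in Iso hearts. Their median log2 fold change was -0.12 in Iso + mino and -0.14 in Iso hearts, beside 0.00 in each for all genes, and 24 of the 30 were negative in each. By library totals 19 and 15 of the 30 were negative, with medians of -0.02 and 0.01. The Slc25 median lay -0.13 and -0.14 from the median of all genes under either scaling. Scaling moves all genes nearly alike, so that distance could hardly differ between the scalings. By limma-voom it was -0.11 in Iso + mino and -0.13 in Iso hearts. The summed cardiomyocyte genes, listed above, were lower in the treated libraries, with 3 of the 5 called lower. Their part in the Slc25 values was not tested.

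Promoters of 4 genes are shown: Slc25a34 and Slc25a42 fell in both treated groups, Slc25a5 rose in both, and Slc25a4 is the family's most abundant gene. Each runs 250 bases before to 50 after the start of transcription in RefSeq, on GRCm38.p6, 5′ to 3′. Capitals mark matches, on either strand, to 3 motifs. AAGGTCA is an extended nuclear receptor element. GGGCGG is the core of the GC box. CCAAT is the core of the CCAAT box.
Slc25a34, chr4:141623785-141624084, minus strand: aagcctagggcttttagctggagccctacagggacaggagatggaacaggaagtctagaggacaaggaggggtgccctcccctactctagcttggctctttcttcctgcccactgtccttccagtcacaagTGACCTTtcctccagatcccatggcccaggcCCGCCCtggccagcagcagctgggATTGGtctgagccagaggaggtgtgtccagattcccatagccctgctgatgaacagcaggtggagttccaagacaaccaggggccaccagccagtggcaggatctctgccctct
Slc25a42, chr8:70212232-70212531, minus strand: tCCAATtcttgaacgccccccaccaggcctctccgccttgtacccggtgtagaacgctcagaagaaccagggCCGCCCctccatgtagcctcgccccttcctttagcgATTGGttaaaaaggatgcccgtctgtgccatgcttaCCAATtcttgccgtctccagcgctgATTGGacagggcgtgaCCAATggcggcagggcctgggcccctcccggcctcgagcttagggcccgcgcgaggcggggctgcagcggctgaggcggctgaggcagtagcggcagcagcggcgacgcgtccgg
Slc25a4, chr8:46211013-46211312, minus strand: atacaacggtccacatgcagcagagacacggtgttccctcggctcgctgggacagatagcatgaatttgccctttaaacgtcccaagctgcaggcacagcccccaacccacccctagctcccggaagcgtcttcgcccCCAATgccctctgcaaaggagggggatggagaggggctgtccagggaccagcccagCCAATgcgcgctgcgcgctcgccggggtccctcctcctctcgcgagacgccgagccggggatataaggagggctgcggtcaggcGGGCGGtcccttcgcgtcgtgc
Slc25a5, chrX:36795347-36795646, plus strand: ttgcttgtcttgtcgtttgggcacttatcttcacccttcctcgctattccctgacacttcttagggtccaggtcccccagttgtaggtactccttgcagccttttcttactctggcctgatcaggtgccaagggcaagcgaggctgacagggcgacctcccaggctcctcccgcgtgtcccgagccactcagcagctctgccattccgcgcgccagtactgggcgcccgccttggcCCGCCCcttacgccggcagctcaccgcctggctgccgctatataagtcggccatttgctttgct

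RefSeq windows of that length were matched for 98 of the 130 Slc genes and 23 of the 30 Slc25 genes. AAGGTCA occurred in 3.06% of the Slc windows, 4.35% of the Slc25 windows and 4.66% of the windows of all 27025 genes, and of the 4 shown only that of Slc25a34 holds it, on the strand opposite to the one printed. GGGCGG occurred in 78.6% of the Slc, 91.3% of the Slc25 and 35.9% of all windows. CCAAT occurred in 37.8%, 56.5% and 37.9%, with 5 matches in Slc25a42, 2 in Slc25a4, 1 in Slc25a34 and 0 in Slc25a5. These are matches of letters, and no motif contains another. The windows of all genes were not limited by expression, while the Slc genes were. Differences between the shares are thus not read as a trait of the carriers.

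Slc25a34 encodes a mitochondrial carrier with no firmly assigned substrate and spans positions 141618824 to 141623821 of chromosome 4 (minus strand, GENCODE M21). Its lowest, median and highest values, in the order used for every gene below, were 39.1, 63.2 and 69.9 CPM in Iso + mino, 54.3, 65.03 and 71.6 CPM in Iso and 98.1, 118 and 147 CPM in Control hearts. Every treated heart lay below every Control heart. Against Control it fell 2.02-fold in Iso + mino hearts (log2 fold change -1.02 ± 0.13 (SE), edgeR adjusted p = 3.16e-05) and 1.92-fold in Iso hearts (log2 fold change -0.94 ± 0.13 (SE), edgeR adjusted p = 0.000105). Both calls held under every alternative setting and left-out library that was run. On the deposited TPM scale (transcript level corrected for length and depth) it averaged 34.9 ± 7.07, 38.4 ± 3.28 and 65.01 ± 11.6 TPM (SD, n = 6 each) in Iso + mino, Iso and Control hearts.

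Slc25a13 (citrin) exchanges mitochondrial aspartate for cytosolic glutamate in the malate-aspartate shuttle. It had 38.3, 57.3 and 64.6 CPM in Iso + mino, 52.3, 61.1 and 69.1 CPM in Iso and 71.2, 80.1 and 97.9 CPM in Control hearts. Neither treated group overlapped Control, and the lowest values were those of Iso + mino 4 and 6, at 38.3 and 41.7 CPM. Its fall was called in Iso + mino hearts (log2 fold change -0.61 ± 0.12 (SE), edgeR adjusted p = 0.0014) and in Iso hearts (log2 fold change -0.43 ± 0.12 (SE), edgeR adjusted p = 0.0214). The Iso call was lost without Iso 3 or Control 3, one at a time (adjusted p between 0.0518 and 0.0547). Its relative with the same exchange, Slc25a12 (aralar), had 118, 174 and 194 CPM in Iso + mino, 145, 159.5 and 177 CPM in Iso and 159.5, 175 and 194 CPM in Control hearts, and its groups overlapped. It was not called in Iso + mino hearts (-0.11 ± 0.09, adjusted p = 0.432) or in Iso hearts (-0.12 ± 0.09, adjusted p = 0.443).

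Slc25a42 brings coenzyme A into the matrix. It had 31.1, 43.96 and 56.8 CPM in Iso + mino, 41.3, 42.96 and 50.1 CPM in Iso and 53.6, 58.99 and 63.2 CPM in Control hearts, and all Iso hearts lay below all Control hearts. The fall was 1.32-fold in each treated group (-0.40 ± 0.10, adjusted p = 0.0104 in Iso + mino and -0.40 ± 0.10, adjusted p = 0.015 in Iso hearts). Slc25a38, which carries glycine for the first step of heme synthesis, had 7.61, 9.43 and 11.6 CPM in Iso + mino, 8.05, 9.09 and 10.97 CPM in Iso and 9.84, 12.1 and 13.4 CPM in Control hearts. Falls were called in Iso + mino hearts (-0.34 ± 0.10, adjusted p = 0.0164) and in Iso hearts (-0.38 ± 0.10, adjusted p = 0.0133), with overlap in each case. Without the 4 libraries high in Myl7 the Iso calls of Slc25a13, Slc25a42 and Slc25a38 were lost (adjusted p = 0.0887, 0.0733 and 0.0941), as they were by library totals (adjusted p = 0.0649, 0.0702 and 0.105). The Iso + mino call of Slc25a38 was lost in both settings too (adjusted p = 0.102 and 0.101).

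**Figure D2:**
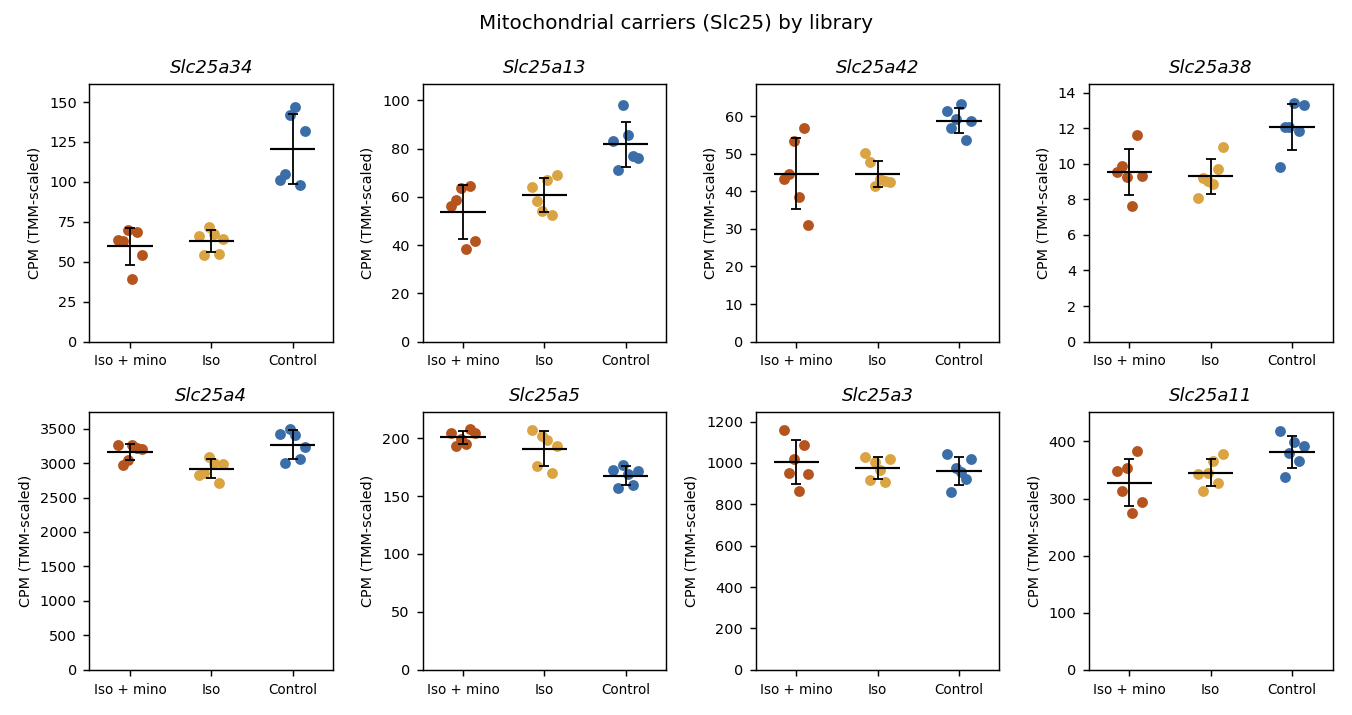
Level of 8 mitochondrial carrier genes in each of the 18 libraries: y axes are TMM-scaled CPM from 0, points are libraries, and lines are the mean with its SD (n = 6). Slc25a34 and Slc25a13 in the treated groups lie wholly below Control, while Slc25a3 overlaps in all 3 groups.

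The ADP/ATP carriers, or adenine nucleotide translocators, pass ATP out of the matrix in exchange for ADP. Slc25a4 (ANT1, the muscle form) was the most abundant of the 130 genes and averaged 2038 TPM, 50.4% of the summed TPM of the 130 genes. Slc25a3, the phosphate carrier, followed at 273 TPM, Slc25a11, the oxoglutarate-malate carrier, at 256 TPM and Slc25a5 (ANT2, the widespread form) at 175 TPM. Of the 130 genes only these 4 exceeded 100 TPM. Another 39 lay between 10 and 100 TPM and 87 under 10 TPM, and the median was 5.62 TPM.

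Slc25a5 had 193, 202 and 208 CPM in Iso + mino, 169.7, 196 and 207 CPM in Iso and 157, 170.4 and 177 CPM in Control hearts, and all Iso + mino hearts exceeded all Control hearts. It rose in Iso + mino hearts (log2 fold change 0.26 ± 0.05 (SE), edgeR adjusted p = 0.00208) and in Iso hearts (log2 fold change 0.19 ± 0.05 (SE), edgeR adjusted p = 0.0253). The Iso call was lost without Iso 1 or 3 or Control 2, 4 or 5, one at a time (adjusted p between 0.0503 and 0.0609). Slc25a4 had 2979, 3215 and 3264 CPM in Iso + mino, 2716, 2921 and 3095 CPM in Iso and 3000.0, 3320.5 and 3491 CPM in Control hearts. It fell slightly in Iso hearts (log2 fold change -0.16 ± 0.05 (SE), edgeR adjusted p = 0.0364) and was not called in Iso + mino hearts (-0.05 ± 0.05, adjusted p = 0.548). That fall was lost without Iso 1, 2, 5 or 6 or Control 1, 3, 4 or 6, one at a time (adjusted p between 0.0566 and 0.0942). It was also lost by library totals (adjusted p = 0.782). In the authors' TPM, which have no TMM scaling, Slc25a4 spanned 1828 to 2236 in Iso + mino, 1951 to 2108 in Iso and 1839 to 2100 in Control hearts, so no fall is seen there.

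The ratio within the pair does not depend on scaling between libraries. Slc25a5 was 8.53 to 9.35% of the Slc25a4 TPM in Iso + mino hearts (median 9.17%), 8.84 to 10.4% in Iso hearts (median 9.28%) and 7.08 to 7.61% in Control hearts (median 7.34%). Every treated heart had a higher ratio than every Control heart, and the treated groups overlapped. The ratio shows that the pair moved unequally, not which of them moved. It was formed after the values were seen, and is given with no test. Both genes are similar in sequence, and the sources used here do not say how reads matching both were counted.

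**Figure D3:**
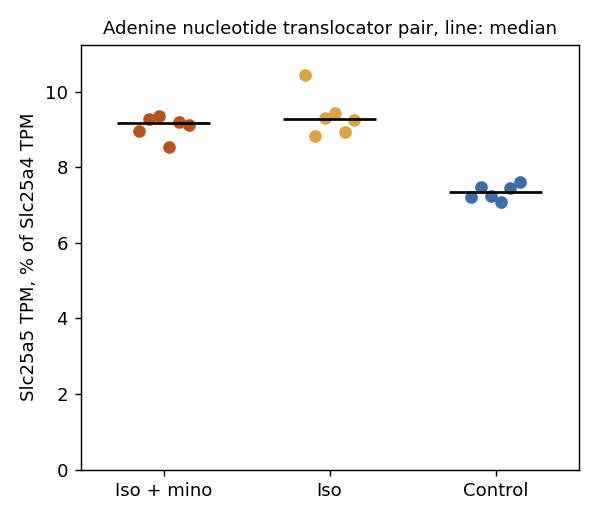
Slc25a5 TPM as a percentage of Slc25a4 TPM in each library (y axis, %), with the group median as a line. The 12 treated hearts lie between 8.53 and 10.4%, all above the Control range of 7.08 to 7.61%.

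Slc25a3 had 864, 984 and 1161 CPM in Iso + mino, 907, 986 and 1029 CPM in Iso and 861, 964 and 1044 CPM in Control hearts, and was not called in Iso + mino hearts (0.06 ± 0.07, adjusted p = 0.55) or Iso hearts (0.02 ± 0.07, adjusted p = 0.886). Slc25a11 had 275, 331 and 384 CPM in Iso + mino, 313, 344 and 378 CPM in Iso and 338, 386 and 419 CPM in Control hearts. A fall was called in Iso + mino hearts (-0.22 ± 0.07, adjusted p = 0.0427). That call was lost without Iso + mino 2, 4 or 6 or Control 1, 3, 4 or 6, one at a time (adjusted p between 0.0669 and 0.103). In Iso hearts its change was -0.15 ± 0.07, adjusted p = 0.207. Between these abundant carriers and the scarce ones the directions were mixed.

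Among the scarcer Slc25 genes, Slc25a33, a pyrimidine nucleotide carrier, had 7.58, 10.1 and 11.05 CPM in Iso + mino, 8.81, 10.7 and 12.4 CPM in Iso and 10.7, 12.6 and 21.4 CPM in Control hearts. It was called lower in Iso + mino hearts (-0.48 ± 0.14, adjusted p = 0.0233). The call was lost without Iso + mino 6 or Control 3, one at a time (adjusted p between 0.057 and 0.0578). Slc25a16, a carrier linked to coenzyme A, had 8.43, 11.8 and 16.1 CPM in Iso + mino, 10.6, 12.3 and 16.4 CPM in Iso and 11.98, 16.2 and 18.4 CPM in Control hearts and was called lower in Iso + mino hearts (-0.45 ± 0.14, adjusted p = 0.0319). This one was lost without Iso + mino 2, 4 or 6 or Control 3, 4, 5 or 6, one at a time (adjusted p between 0.0503 and 0.0772). Both calls rest on several single libraries. Slc25a1, the citrate carrier, was called higher in Iso + mino hearts (0.55 ± 0.16, adjusted p = 0.0173) with 3.97, 6.13 and 7.67 CPM in Iso + mino, 4.06, 5.62 and 6.89 CPM in Iso and 3.59, 4.02 and 4.82 CPM in Control hearts. Slc25a24, an ATP-magnesium and phosphate carrier, was called higher as well (0.45 ± 0.14, adjusted p = 0.0277), at 5.35, 7.18 and 10.5 CPM in Iso + mino, 5.36, 6.74 and 8.14 CPM in Iso and 4.86, 5.34 and 5.98 CPM in Control hearts. Its call was lost without Iso + mino 1 or 4 or Control 1, 3 or 6, one at a time (adjusted p between 0.0536 and 0.0828). Without Iso + mino 4 and 6 together, none of these 4 calls remained (adjusted p = 0.119 for Slc25a33, 0.189 for Slc25a16, 0.151 for Slc25a1 and 0.179 for Slc25a24).

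The summed CPM of the 30 Slc25 genes was 5180 to 5737 in Iso + mino, 4816 to 5382 in Iso and 5173 to 5958 in Control hearts. Without Slc25a4, which makes up most of it, it was 1953 to 2512, 2100 to 2374 and 2173 to 2539 CPM. Both sums overlapped between all groups. Slc25a3, at 861 to 1161 CPM over the libraries, makes up much of the second sum. Sums of this kind could hardly show falls of the scarcer carriers, so the overlap says nothing about those falls.

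Calls among the amino acid carriers went in both directions. Classes here and below go by family number, not by the substrate of each gene. Of 19 genes in families classed under amino acids and neurotransmitters, 4 were called higher and 2 lower in Iso + mino hearts. In Iso hearts 2 were called higher and 2 lower. Of all genes 19.3% were called in Iso + mino hearts and 12.6% in Iso hearts. The falls were in Slc43a2 (LAT4) and Slc36a2 (PAT2), and the rises in Slc3a2, Slc1a5, Slc38a1 and Slc38a10.

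Slc43a2, a facilitative carrier of branched-chain and aromatic amino acids on chromosome 11 (75531694 to 75577575, plus strand), had 9.03, 9.58 and 10.5 CPM in Iso + mino, 9.22, 11.2 and 12.4 CPM in Iso and 12.8, 16.2 and 18.1 CPM in Control hearts. No treated heart reached the lowest Control heart. The fall was 1.65-fold in Iso + mino hearts (log2 fold change -0.72 ± 0.09 (SE), edgeR adjusted p = 1.53e-05) and 1.45-fold in Iso hearts (log2 fold change -0.54 ± 0.09 (SE), edgeR adjusted p = 0.000484), and both calls held under every alternative run. Slc36a2, a proton-coupled carrier of small amino acids, had 7.01, 10.8 and 12.2 CPM in Iso + mino, 10.9, 12.2 and 16.6 CPM in Iso and 12.8, 16.9 and 21.6 CPM in Control hearts. Its fall in Iso + mino hearts had no overlap with Control (log2 fold change -0.70 ± 0.14 (SE), edgeR adjusted p = 0.00119) and was kept throughout. In Iso hearts the fall was called too (log2 fold change -0.41 ± 0.13 (SE), edgeR adjusted p = 0.048). That call was lost without Iso 1, 2, 3, 4 or 5 or Control 1, 3, 4 or 6, one at a time (adjusted p between 0.051 and 0.108).

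Slc3a2, the heavy chain (CD98) that brings several amino acid exchangers to the cell surface, had 37.98, 40.6 and 45.4 CPM in Iso + mino, 31.9, 38.6 and 42.8 CPM in Iso and 26.4, 32.1 and 34.6 CPM in Control hearts. All Iso + mino hearts exceeded all Control hearts, and the Iso group overlapped Control. It rose in Iso + mino hearts (log2 fold change 0.40 ± 0.08 (SE), edgeR adjusted p = 0.00194), kept throughout, and in Iso hearts (log2 fold change 0.29 ± 0.08 (SE), edgeR adjusted p = 0.0238). The Iso call was lost without Iso 3 or 5 or Control 2 or 3, one at a time (adjusted p between 0.0518 and 0.0651). Slc38a1 (SNAT1), a sodium-coupled glutamine carrier, had 7.60, 9.04 and 12.7 CPM in Iso + mino, 6.42, 8.49 and 10.6 CPM in Iso and 5.11, 6.76 and 8.28 CPM in Control hearts. Its rise in Iso + mino hearts was called under every alternative (0.50 ± 0.14, adjusted p = 0.0154), while the Iso value was not called (0.37 ± 0.14, adjusted p = 0.0853).

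Slc1a5 (ASCT2), an exchanger of glutamine and other neutral amino acids, had 21.5, 27.2 and 31.9 CPM in Iso + mino, 19.1, 22.1 and 30.5 CPM in Iso and 13.1, 19.2 and 23.5 CPM in Control hearts. It was called higher in Iso + mino hearts (0.48 ± 0.13, adjusted p = 0.0158) and not in Iso hearts (0.27 ± 0.13, adjusted p = 0.198), and no single library decided the call. Without Iso + mino 4 and 6 together it was lost (adjusted p = 0.0941). Slc38a10 had 64.95, 70.5 and 80.4 CPM in Iso + mino, 71.5, 75.6 and 77.5 CPM in Iso and 62.8, 64.04 and 66.4 CPM in Control hearts, with Iso hearts wholly above Control hearts. It was called higher in Iso hearts (0.22 ± 0.05, adjusted p = 0.00786) and in Iso + mino hearts (0.16 ± 0.05, adjusted p = 0.0328). The Iso + mino call was lost without Iso + mino 3 or 5 or Control 1, 3, 4, 5 or 6, one at a time (adjusted p between 0.0519 and 0.0719). Slc38a2 (SNAT2) was the most abundant amino acid carrier of its family, at 102, 119.6 and 165 CPM in Iso + mino, 84.4, 99.8 and 138 CPM in Iso and 89.7, 122 and 210.1 CPM in Control hearts. No change was called in Iso + mino (-0.07 ± 0.18, adjusted p = 0.804) or Iso hearts (-0.32 ± 0.18, adjusted p = 0.261). Slc6a8, which takes up creatine, had 127, 143 and 163 CPM in Iso + mino, 121, 145 and 177 CPM in Iso and 132, 151 and 165 CPM in Control hearts and was not called either (-0.04 ± 0.09, adjusted p = 0.771 and -0.01 ± 0.09, adjusted p = 0.962 in the same order).

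Of 15 carriers of sodium, protons, chloride and bicarbonate, 3 were called higher and 0 lower in Iso + mino hearts, and 2 higher and 0 lower in Iso hearts, while 4 in each had an unadjusted p under 0.05. Beside the 10.2% and 9.05% of all genes called higher and lower in Iso + mino hearts, and the 6.94% and 5.62% in Iso hearts, counts this small say nothing about the direction of the class. The called genes were Slc4a2, Slc26a10 and Slc4a3.

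Slc4a2 (AE2), a chloride-bicarbonate exchanger on chromosome 5 (24423837 to 24440950, plus strand), had 28.5, 29.3 and 30.2 CPM in Iso + mino, 23.02, 28.5 and 30.1 CPM in Iso and 18.1, 20.1 and 24.2 CPM in Control hearts. All Iso + mino hearts exceeded all Control hearts, and Iso 6 alone among Iso hearts fell within the Control range. It rose 1.41-fold in Iso + mino hearts (log2 fold change 0.50 ± 0.07 (SE), edgeR adjusted p = 7.65e-05) and 1.34-fold in Iso hearts (log2 fold change 0.42 ± 0.07 (SE), edgeR adjusted p = 0.000712), and both calls held under every alternative. The neighbouring gene Fastk shares exon positions with it and has 683% of its counts, so Slc4a2 is uncertain where reads could go to either. Fastk itself gave log2 fold changes of -0.12 ± 0.06 in Iso + mino and -0.11 ± 0.06 in Iso hearts (SE) and was not called (adjusted p = 0.143 and 0.211).

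Slc4a3 (AE3), the exchanger typical of heart and brain, is the most abundant gene of its family at 188, 206 and 226 CPM in Iso + mino, 179, 193 and 207 CPM in Iso and 169.6, 185 and 203 CPM in Control hearts. It was called higher in Iso + mino hearts (0.17 ± 0.06, adjusted p = 0.0443), a small change, and was not called in Iso hearts (0.05 ± 0.06, adjusted p = 0.57). The call was lost without Iso + mino 1, 3, 5 or 6 or Control 2, 3, 4, 5 or 6, one at a time (adjusted p between 0.0526 and 0.109). Slc26a10, of the anion exchanger family Slc26, had 14.6, 18.6 and 32.2 CPM in Iso + mino, 17.4, 21.6 and 24.5 CPM in Iso and 11.5, 13.5 and 20.1 CPM in Control hearts, with overlap in both comparisons. Rises were called in Iso + mino hearts (0.63 ± 0.18, adjusted p = 0.0186) and in Iso hearts (0.58 ± 0.18, adjusted p = 0.0384). The first was lost without Iso + mino 4 (adjusted p = 0.0515). The second was lost without Iso 2, 3, 5 or 6 or Control 2, 3, 4, 5 or 6, one at a time (adjusted p between 0.0564 and 0.0917). No change was called for the potassium-chloride cotransporter Slc12a7 (KCC4; 0.02 ± 0.09, adjusted p = 0.925 in Iso + mino and -0.06 ± 0.09, adjusted p = 0.72 in Iso hearts) or the sodium-potassium-chloride cotransporter Slc12a2 (NKCC1; 0.09 ± 0.11, adjusted p = 0.581 in Iso + mino and 0.09 ± 0.11, adjusted p = 0.647 in Iso hearts).

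**Figure D4:**
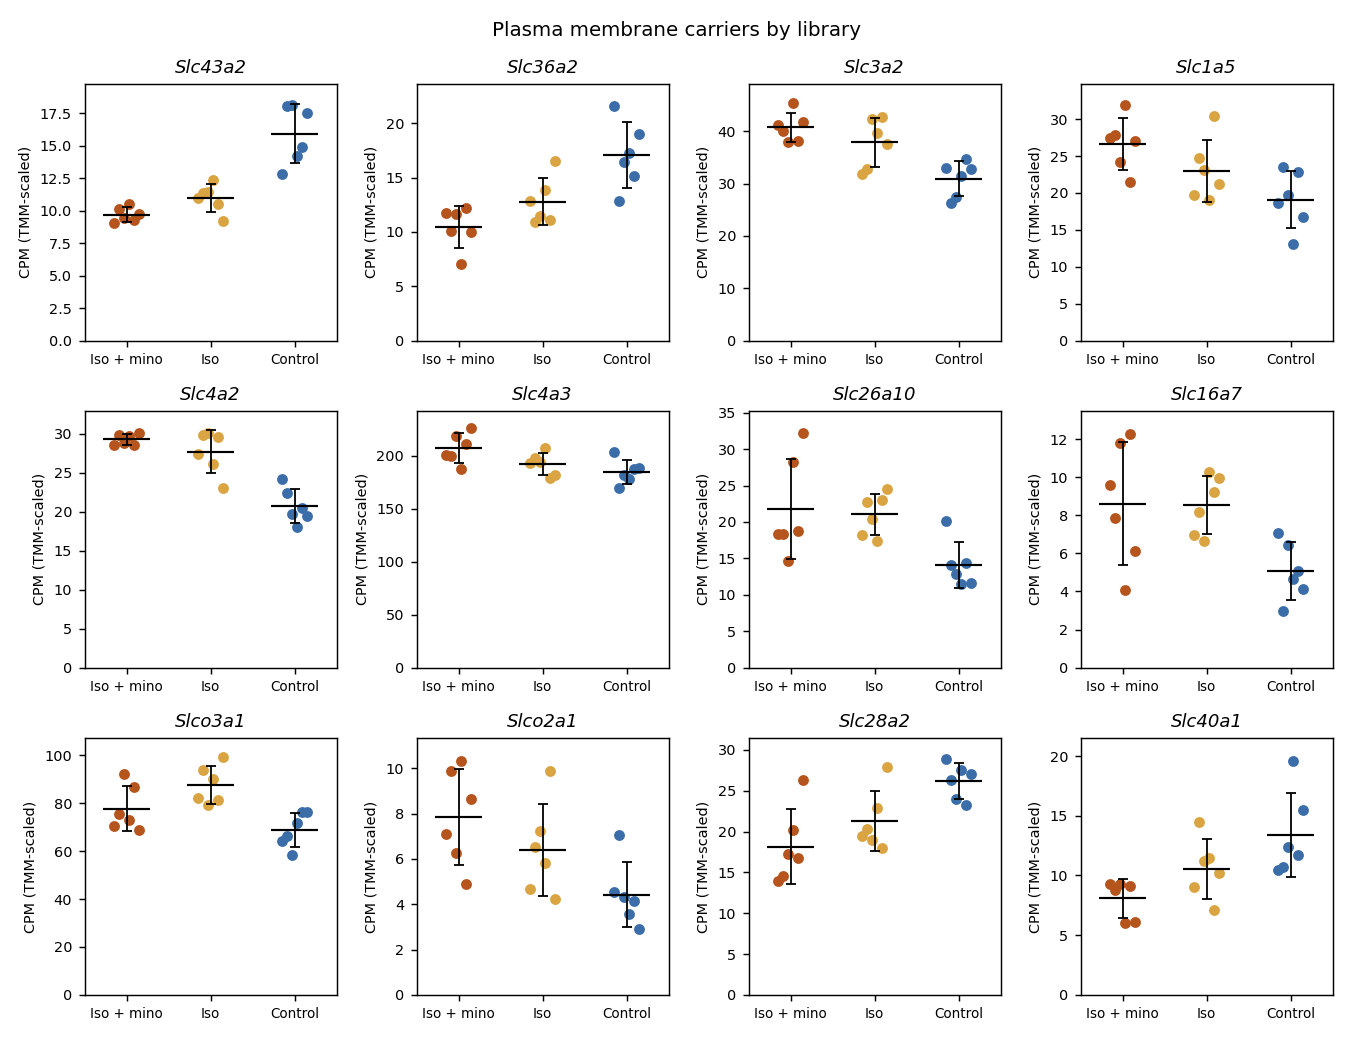
Level of 12 non-mitochondrial carrier genes in each library: y axes are TMM-scaled CPM from 0, points are libraries, and lines are the mean with its SD (n = 6). In Slc43a2 every treated heart lies below the Control range of 12.8 to 18.1 CPM, and in Slc4a2 every Iso + mino heart lies above its Control range of 18.1 to 24.2 CPM.

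Of 13 carriers of monocarboxylates, organic ions and lipids, 3 were called higher and 3 lower in Iso + mino hearts (10.2% and 9.05% of all genes) and 2 higher and 1 lower in Iso hearts (6.94% and 5.62% of all genes). Slc16a7 (MCT2), a carrier of lactate and pyruvate, had 4.08, 8.72 and 12.3 CPM in Iso + mino, 6.67, 8.68 and 10.2 CPM in Iso and 2.98, 4.88 and 7.07 CPM in Control hearts. It was called higher in Iso + mino hearts (0.77 ± 0.24, adjusted p = 0.0304) and Iso hearts (0.75 ± 0.24, adjusted p = 0.0453), and averaged 1.13, 1.18 and 0.612 TPM in Iso + mino, Iso and Control hearts. For Iso + mino this was lost without Iso + mino 1, 3 or 5 or Control 2, 4 or 6, one at a time (adjusted p between 0.0541 and 0.0651). For Iso it was lost without Iso 2, 4, 5 or 6 or Control 2, 4, 5 or 6, one at a time (adjusted p between 0.0625 and 0.0931).

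Among the organic anion carriers, Slco3a1 had 68.9, 74.3 and 92.1 CPM in Iso + mino, 79.2, 86.1 and 99.1 CPM in Iso and 58.2, 69.2 and 76.3 CPM in Control hearts, with Iso hearts wholly above Control hearts. It was called higher in Iso hearts (log2 fold change 0.35 ± 0.08 (SE), edgeR adjusted p = 0.00855) under every alternative, and not in Iso + mino hearts (0.18 ± 0.08, adjusted p = 0.143). The prostaglandin carrier Slco2a1 had the largest rise of any called Slc gene, 1.77-fold in Iso + mino hearts (0.82 ± 0.22, adjusted p = 0.0153), with 4.89, 7.88 and 10.3 CPM in Iso + mino, 4.22, 6.18 and 9.89 CPM in Iso and 2.92, 4.24 and 7.06 CPM in Control hearts and overlap of all groups. Its call was lost without Iso + mino 4 and 6 together (adjusted p = 0.103) and, with adjusted p = 0.102, when the 4 Myl7-rich libraries were left out. Slco2a1 is a gene of vascular endothelium in many tissues, and the endothelial sums of the same libraries are given above; its share in this rise was not tested. Slco5a1, a carrier with no firmly assigned substrate, was called lower in Iso + mino hearts (-0.46 ± 0.14, adjusted p = 0.0285). The call was lost without Iso + mino 1, 4 or 6 or Control 2, 5 or 6, one at a time (adjusted p between 0.0501 and 0.0725).

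Other genes of the group were also called lower. Slc44a2, a choline-like carrier, had 38.3, 43.7 and 52.3 CPM in Iso + mino, 41.6, 49.7 and 63.1 CPM in Iso and 50.3, 57.5 and 63.4 CPM in Control hearts and fell in Iso + mino hearts (-0.37 ± 0.10, adjusted p = 0.01), a call lost by library totals (adjusted p = 0.0998). Slc22a23, with no firmly assigned substrate, had 4.89, 5.91 and 6.84 CPM in Iso + mino, 5.64, 6.10 and 7.27 CPM in Iso and 6.07, 8.21 and 10.2 CPM in Control hearts and fell in Iso + mino hearts (-0.47 ± 0.12, adjusted p = 0.01). Slc47a1 (MATE1), which exports organic cations against protons, had 41.2, 43.9 and 46.1 CPM in Iso + mino, 38.6, 41.8 and 47.1 CPM in Iso and 42.4, 49.2 and 55.5 CPM in Control hearts. Its fall was called in Iso hearts (-0.22 ± 0.07, adjusted p = 0.0309) and not in Iso + mino hearts (-0.17 ± 0.07, adjusted p = 0.0776). It was lost without Iso 1, 2 or 3 or Control 1, 4 or 6, one at a time (adjusted p between 0.0535 and 0.0815). By library totals it was lost as well (adjusted p = 0.491).

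Of 19 carriers of metals and magnesium, 2 were called higher and 2 lower in Iso + mino hearts, and 2 higher and 0 lower in Iso hearts. Of all genes 10.2% and 9.05% were called higher and lower in Iso + mino hearts and 6.94% and 5.62% in Iso hearts, so these counts lie near the background. The called rises were in zinc carriers, the Slc30 and Slc39 families, which make up 6 and 7 of the 19 genes. The summed CPM of the 7 Slc39 genes, zinc importers of the ZIP type, was 196.2 to 208 in Iso + mino, 196.6 to 209 in Iso and 179 to 196.2 in Control hearts. Iso hearts lay wholly above Control hearts, by a narrow margin, and Iso + mino hearts overlapped it only at the edge. Slc39a7, which releases zinc from the endoplasmic reticulum, had 46.4, 50.8 and 54.7 CPM in Iso + mino, 44.5, 47.5 and 49.8 CPM in Iso and 37.3, 42.6 and 47.3 CPM in Control hearts and rose in Iso + mino hearts (0.25 ± 0.06, adjusted p = 0.00733). Slc39a1 had 42.4, 46.7 and 47.7 CPM in Iso + mino, 45.9, 49.5 and 52.4 CPM in Iso and 39.1, 41.5 and 45.96 CPM in Control hearts and rose in Iso hearts (0.22 ± 0.05, adjusted p = 0.0092). Slc39a13 rose in Iso + mino hearts (0.21 ± 0.07, adjusted p = 0.0304). Its call was lost without Iso + mino 2, 4 or 5 or Control 2, 4 or 6, one at a time (adjusted p between 0.0504 and 0.0773). Psmc3 shares exon positions with Slc39a13 at 742% of its counts, so that gene is uncertain. The zinc exporter Slc30a1 (ZnT1) had 11.8, 13.3 and 15.001 CPM in Iso + mino, 12.4, 14.1 and 15.8 CPM in Iso and 9.01, 11.5 and 13.7 CPM in Control hearts and rose in Iso hearts (0.29 ± 0.10, adjusted p = 0.0496). That rise was lost without Iso 2, 3, 4 or 5 or Control 1, 4, 5 or 6, one at a time (adjusted p between 0.0529 and 0.117). It was also lost by RLE scaling (adjusted p = 0.0519) and by upper-quartile scaling (adjusted p = 0.0584).

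The iron exporter Slc40a1 (ferroportin), abundant in macrophages, had 5.98, 8.93 and 9.28 CPM in Iso + mino, 7.08, 10.7 and 14.5 CPM in Iso and 10.5, 12.04 and 19.6 CPM in Control hearts. All Iso + mino hearts lay below all Control hearts, and Iso + mino 4 and 6 were the lowest at 5.98 and 6.06 CPM. It fell in Iso + mino hearts (log2 fold change -0.73 ± 0.18 (SE), edgeR adjusted p = 0.00713) and was not called in Iso hearts (-0.34 ± 0.17, adjusted p = 0.223), while the macrophage genes listed above were higher in both. The fall was lost without Iso + mino 4 and 6 together (adjusted p = 0.0594). Slc41a1, a magnesium carrier, had 34.1, 45.6 and 51.9 CPM in Iso + mino, 43.4, 48.3 and 50.7 CPM in Iso and 49.4, 53.5 and 63.7 CPM in Control hearts and fell in Iso + mino hearts (-0.31 ± 0.09, adjusted p = 0.0194), lost without the same 2 libraries (adjusted p = 0.121).

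Of 22 carriers of nucleosides, nucleotide sugars, vitamins and heme, 1 was called higher and 3 lower in Iso + mino hearts, near the 10.2% and 9.05% of all genes. In Iso hearts 0 were called by edgeR, and 4 had an unadjusted p under 0.05. The concentrative nucleoside carrier Slc28a2 (CNT2), which takes up purine nucleosides such as adenosine, had 13.9, 17.005 and 26.3 CPM in Iso + mino, 18.03, 19.9 and 27.9 CPM in Iso and 23.2, 26.7 and 28.9 CPM in Control hearts. It was called lower in Iso + mino hearts (log2 fold change -0.53 ± 0.13 (SE), edgeR adjusted p = 0.00866), and Iso hearts gave -0.30 ± 0.13, adjusted p = 0.142. The equilibrative carrier Slc29a1 (ENT1) had 37.4, 39.1 and 44.03 CPM in Iso + mino, 37.3, 39.5 and 45.1 CPM in Iso and 40.2, 41.5 and 47.02 CPM in Control hearts and was not called (-0.11 ± 0.06, adjusted p = 0.223 in Iso + mino and -0.09 ± 0.06, adjusted p = 0.354 in Iso hearts).

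Slc35b4, a nucleotide sugar carrier of the Golgi and endoplasmic reticulum, had 9.55, 10.1 and 11.4 CPM in Iso + mino, 7.76, 8.72 and 10.3 CPM in Iso and 5.84, 7.90 and 9.01 CPM in Control hearts. All Iso + mino hearts exceeded all Control hearts, and the rise was called there under every alternative (log2 fold change 0.38 ± 0.10 (SE), edgeR adjusted p = 0.01). Its relatives Slc35d1 (-0.29 ± 0.09, adjusted p = 0.0338) and Slc35f5 (-0.28 ± 0.09, adjusted p = 0.0296), the second with no firmly assigned substrate, fell in Iso + mino hearts. The first call was lost without Iso + mino 2, 4 or 6 or Control 3 or 6, one at a time (adjusted p between 0.0511 and 0.0914). The second was lost without Iso + mino 2, 4 or 6 or Control 6, one at a time (adjusted p between 0.0627 and 0.0843).

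Of the pair of phosphate carriers, Slc20a2 (PiT-2) had 57.7, 93.9 and 101 CPM in Iso + mino, 80.8, 89.5 and 101 CPM in Iso and 94.9, 111 and 134 CPM in Control hearts, with Iso + mino 4 and 6 lowest at 61.1 and 57.7 CPM. A fall was called in Iso + mino hearts (-0.42 ± 0.12, adjusted p = 0.0205). It was lost without Control 3 (adjusted p = 0.0533) and without Iso + mino 4 and 6 together (adjusted p = 0.0601). Smim19 shares exon positions with it at 21.1% of its counts and was itself called lower, at -0.22 ± 0.07 in Iso + mino (adjusted p = 0.038) and -0.36 ± 0.07 in Iso hearts (adjusted p = 0.00281), so Slc20a2 is uncertain. Slc20a1 (PiT-1) had 22.9, 26.1 and 42.96 CPM in Iso + mino, 20.7, 27.6 and 39.1 CPM in Iso and 15.2, 22.6 and 34.6 CPM in Control hearts and was not called (0.28 ± 0.20, adjusted p = 0.353 in Iso + mino and 0.24 ± 0.20, adjusted p = 0.474 in Iso hearts). None of 7 genes, 6 sugar and polyol carriers or their relatives and the multivitamin carrier Slc5a6, was called by edgeR in any comparison, and 0 of the 7 had an unadjusted p under 0.05.

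Settings other than a single left-out library ended many calls. Whether calls of other genes were lost as often was not tested. Without the 4 libraries rich in Myl7, 13 of the 17 Iso calls were lost (adjusted p between 0.051 for Slc25a5 and 0.313 for Slc30a1), and those of Slc25a34, Slc43a2, Slc4a2 and Slco3a1 were kept. In Iso + mino hearts 19 of the 34 calls were lost there (adjusted p between 0.0535 for Slc39a7 and 0.253 for Slc35f5). For Slc39a7, Slc28a2 (0.059) and Slc22a23 (0.0684) in Iso + mino hearts, and for Slc38a10 (0.0654) and Slc39a1 (0.138) in Iso hearts, no single library ended the call. By library totals 6 calls in Iso and 10 in Iso + mino hearts were lost, all of them falls, with adjusted p between 0.0649 for Slc25a13 and 0.782 for Slc25a4 in Iso hearts and between 0.0544 for Slc20a2 and 0.233 for Slc25a11 in Iso + mino hearts. Without Iso + mino 4 and 6 together 18 calls of that group were lost (adjusted p between 0.0594 for Slc40a1 and 0.252 for Slc25a11).

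By family number, 13 families of 3 or more genes held 93 of the 130. Slc25 had the most genes and the most calls. Of all genes 10.2% were called higher and 9.05% lower in Iso + mino hearts, and 6.94% and 5.62% in Iso hearts. Beside these shares, counts in families this small are a description only. Of 16 Slc35 genes 1 was called higher and 2 lower in Iso + mino hearts, and 0 in Iso hearts. There 3 of them had an unadjusted edgeR p under 0.05, beside 27.6% of all genes. Of 7 Slc38 genes 2 and 1 were called higher in Iso + mino and Iso hearts, and of 7 Slc39 genes 2 and 1, with 0 lower in either family. Slc30 had 0 and 1 called higher of 6, Slc4 had 2 and 1 called higher of 4, and Slco had 1 higher and 1 lower in Iso + mino hearts and 1 higher in Iso hearts, of 4. Slc26 had 1 and 1 called higher of 3 and Slc36 had 1 and 1 called lower of 3. Slc12 (4 genes) and Slc37 (3) had none called. The median log2 fold change of Slc4 was 0.18 in Iso + mino and 0.19 in Iso hearts, over only 4 genes.

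**Figure D5:**
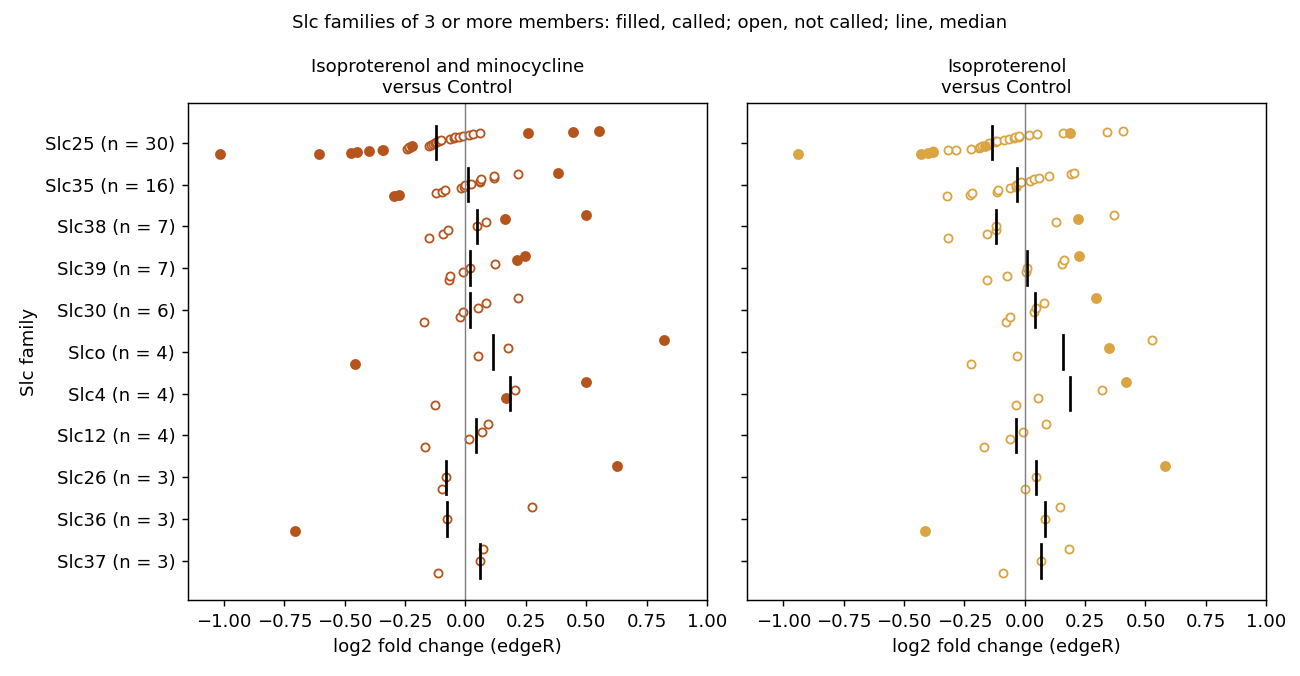
Log2 fold change from edgeR (x axis) of every gene in 11 of the 13 Slc families with 3 or more genes (y axis), Iso + mino versus Control on the left and Iso versus Control on the right: filled points are called, open ones not, and the line is the family median. The Slc25 median lies at -0.12 on the left and -0.14 on the right, with 24 of 30 points below 0 in each.

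Summed over the family, Slc4 had 234 to 276 CPM in Iso + mino, 229 to 267 in Iso and 213 to 252 in Control hearts. Slco had 107 to 130.5, 116 to 138 and 93.2 to 116 CPM in that order, and its Iso sums lay wholly above its Control sums. The family sums of Slc35 (283 to 332, 279 to 326 and 305 to 347 CPM) and Slc38 (288 to 388, 280 to 359 and 261 to 424 CPM) overlapped between all groups. The sum over all 130 Slc genes was 7924 to 8720 CPM in Iso + mino, 7663 to 8336 in Iso and 7889 to 8914 in Control hearts.

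Whether minocycline added to isoproterenol changed the carriers is addressed by Iso + mino against Iso. No Slc gene was called by edgeR, DESeq2 or limma-voom, and 6 of 130 had an unadjusted edgeR p under 0.05, beside 7.6% of all genes. The libraries of the groups overlapped for every Slc gene, beside 0.346% of all genes without overlap. The nucleoside carrier Slc29a2 (ENT2) had the smallest p: it had 6.36, 7.39 and 8.80 CPM in Iso + mino, 4.48, 5.71 and 7.10 CPM in Iso and 5.85, 6.46 and 7.87 CPM in Control hearts (log2 difference 0.38, 95% interval 0.14 to 0.63, edgeR adjusted p = 0.451). The vesicular glutamate carrier Slc17a7 (VGLUT1) had 9.24, 11.6 and 16.8 CPM in Iso + mino, 15.2, 15.97 and 16.9 CPM in Iso and 9.29, 11.6 and 16.9 CPM in Control hearts (log2 difference -0.39, 95% interval -0.66 to -0.13, edgeR adjusted p = 0.465). Its highest values in Iso + mino and Control hearts were in Iso + mino 2 and Control 5, which were also the highest of their groups in Myl7. All Iso hearts had 15.2 to 16.9 CPM of Slc17a7, while only Iso 5 among them exceeded 80 CPM of Myl7. The part of atrial tissue was not tested. Slc35b1, a carrier of the endoplasmic reticulum, gave 0.18, 95% interval 0.05 to 0.32, and Slc25a4 gave 0.12, 95% interval 0.01 to 0.22. The remaining pair of the 6 had lower values in Iso + mino hearts: Slc40a1 gave -0.40, 95% interval -0.77 to -0.02, and Slc36a2 gave -0.29, 95% interval -0.58 to -0.0047.

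The same difference is given for the other genes called in both treated groups. The log2 difference of Iso + mino minus Iso was -0.08, 95% interval -0.35 to 0.20 for Slc25a34, and 0.00, 95% interval -0.22 to 0.22 for Slc25a42. It was 0.08, 95% interval -0.07 to 0.23 for Slc4a2, 0.07, 95% interval -0.04 to 0.18 for Slc25a5 and -0.18, 95% interval -0.37 to 0.01 for Slc43a2. For Slc25a13 it was -0.18, 95% interval -0.42 to 0.07, for Slc25a38 0.04, 95% interval -0.17 to 0.24 and for Slc3a2 0.11, 95% interval -0.06 to 0.28. For Slc38a10 it was -0.06, 95% interval -0.17 to 0.05, for Slc26a10 0.05, 95% interval -0.32 to 0.41 and for Slc16a7 0.01, 95% interval -0.47 to 0.49. Changes inside these intervals were not resolved with 6 libraries a group, and the missing call does not show that the groups were alike.

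Spread within groups varied between carriers. The median coefficient of variation over the 130 genes was 11.7% in Iso + mino, 11.1% in Iso and 10.4% in Control hearts. Slc38a10 had 8.09% in Iso + mino, 3.07% in Iso and 1.91% in Control hearts, the lowest of the 130 in Control hearts. Slc41a3, a magnesium carrier relative of Slc41a1, varied most in both treated groups, with a coefficient of 42.5% in Iso + mino, 41.4% in Iso and 50.7% in Control hearts, over 17.99, 31.8 and 57.7 CPM in Iso + mino, 20.5, 39.4 and 59.03 CPM in Iso and 13.9, 29.8 and 53.3 CPM in Control hearts. Slc25a25, an ATP-magnesium and phosphate carrier, varied most in Control hearts at 59.8%, beside 18.9% in Iso + mino and 26.95% in Iso hearts, over 7.88, 9.29 and 12.7 CPM in Iso + mino, 7.82, 10.3 and 15.8 CPM in Iso and 5.58, 6.71 and 19.9 CPM in Control hearts. The cationic amino acid carrier Slc7a1 had 22.3, 41.1 and 59.1 CPM in Iso + mino, 36.3, 51.5 and 72.1 CPM in Iso and 20.01, 31.6 and 56.97 CPM in Control hearts. None of these 3 was called, and their SEs (0.38 for Slc41a3, 0.29 for Slc25a25 and 0.26 for Slc7a1, log2, Iso against Control) are wide beside the median SE of 0.10 over the Slc genes.

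Of 18 tested carriers that go by other symbols, 5 were called higher and 0 lower in Iso + mino hearts and 3 higher and 0 lower in Iso hearts, beside 10.2% and 6.94% of all genes called higher. Ucp2, a mitochondrial carrier of the Slc25 type, averaged 61.97, 59.98 and 37.4 CPM in Iso + mino, Iso and Control hearts. Bsg (basigin), which brings monocarboxylate carriers to the surface, was called lower in both treated groups (log2 fold change -0.29 ± 0.05 and -0.19 ± 0.05, SE). The other such partner, Emb, was called higher in both, at averages of 1.75 and 1.83 CPM, against 0.642 CPM in Control hearts. Of the 8 Slc genes left out by name, 1 was called higher (Slc6a6) and 3 lower (Slc25a20, Slc22a5 and Slc27a1) in each treated group.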

How the data were processed

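Per the labels' protocols, RNA was extracted with a Qiagen lipid tissue kit, sequenced as paired-end 150-base reads on an Illumina NovaSeq, and trimmed and analysed in CLC Genomics Workbench 21.0.3 (quality limit 0.05, at most 2 ambiguous bases). Per the submitters' processing notes, edgeR was used, with no role stated. The sources used here do not give the mapping, genome build, annotation or handling of strand.

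The authors deposited whole-number counts per gene and library and TPM values. The deposited counts were used for every test and for CPM. The authors' deposited TPM served for levels between genes and for the Slc25a5 to Slc25a4 ratio. Group levels in TPM were also given for Slc25a34, Slc25a4 and Slc16a7, without a test. Columns were matched to libraries by the number in the description field, and 0 per-sample columns were left without a library. Titles and descriptions number the same library differently, with the order of replicates only a name.

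Genes passing filterByExpr (13281, all 130 Slc genes among them) were fitted with edgeR 4.0.16 in R 4.3.3: TMM scaling, 1 mean per group over 18 libraries, robust quasi-likelihood F tests, and Benjamini-Hochberg adjustment over all genes, two-sided. The SE is the absolute log2 fold change divided by the square root of F, and the 95% intervals use the moderated degrees of freedom. The fit was also run on simulated counts with the same dispersion for every gene. That is a simpler setting than these data, and no result here rests on it. The biological coefficient of variation was 13.2%. Depth covers counting error only; chi-square per degree of freedom was 5.30 to 33.3 in all 45 pairs of libraries within a group, so none was a duplicate. Alternatives were RLE, upper-quartile and no TMM scaling, other filters, a fit of only the 12 libraries compared, removal of mitochondrially encoded genes, removal of libraries over 80 CPM Myl7, DESeq2 1.42.0, limma-voom (limma 3.58.1), and each library left out. Removal of Iso + mino 4 and 6 and the fit by library totals were chosen after seeing the data.

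Members, lists, family classes and the rule for named genes were chosen with earlier results of these data known. The rule names, per comparison, the called Slc genes with the 12 largest rises and falls, or the 10 smallest p where fewer than 10 were called, the most abundant gene of each family of 3 or more, and a fixed list. Other called genes, Slc25a25, Slc7a1 and Slc20a1 were added after their values were seen. Some of the genes the rule names are not reported here. All 130 genes are protein coding in GENCODE M21, and 106 have the same start and end there as in the deposited table, whose coordinates are printed. For 13 genes an overlapping gene had at least 20% of their counts, with shared exon positions in 11; without known strand use these are uncertain. The motifs were sought in RefSeq promoter windows (GRCm38.p6).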

Additional observations from a re-analysis of the deposited data

Results flagged for a closer look

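Over 168 sets of 6 libraries, 3 had 1 library far from the other 5 by Dixon's test, where chance alone flags about 1 in 20. Slc38a1 was 12.7 CPM in Iso + mino 2, against 7.60 to 9.38 CPM in the other 5 libraries of that group, and its call in Iso + mino hearts held without Iso + mino 2. Slc25a33 was 21.4 CPM in Control 3, against 10.7 to 13.8 CPM in the other Control libraries, and its call in Iso + mino hearts was lost without Control 3 (edgeR adjusted p = 0.057). Slc26a10 was 20.1 CPM in Control 1, against 11.5 to 14.3 CPM in the others, and its calls in both treated groups held without Control 1.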

How the results depend on the processing

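Of 51 calls of an Slc gene in 1 comparison, 14 held under every alternative (4 in Iso and 10 in Iso + mino hearts) and none reversed. In Iso hearts the main count was 9 higher and 8 lower: it was 26 and 2 by library totals without TMM scaling, 3 and 2 without the 4 libraries high in Myl7, and 5 higher with no filter on low counts. In Iso + mino hearts, 16 higher and 18 lower became 22 and 8 by library totals, 6 and 9 without the libraries high in Myl7, and 8 and 9 without Iso + mino 4 and 6. Fewer libraries enter the last 2 settings. The share of all genes called is given only for the main fit and library totals. The other counts thus do not show whether Slc genes lost more calls than other genes. Library totals shift the median of all genes, as given in the report. For the other changes the cause was not tested. With each library left out, the Iso counts were 5 to 9 higher (5 without Iso 5 or Control 4) and 5 to 9 lower (5 without Iso 1, Iso 3 or Control 1, 3, 4 or 6), and the Iso + mino counts 11 to 14 higher and 12 to 21 lower. Iso + mino against Iso gave 0 under every alternative run. No paired analysis was possible because no library numbers are shared between groups. The depth of 14203041 counts or more leaves genes near 5 CPM with about the precision that their SEs show.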
